A study of Mus musculus with 9 samples.

Results

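The wild-type (WT) small-intestinal crypts of the AhCre mouse line were compared with the WT crypts of the Villin line. The members are the 5 libraries labelled WT of the 9 in the series, chosen by label and line alone: 2 AhCre WT libraries and 3 Villin WT libraries. The other 4 libraries, 2 per line, have lost Pcgf6 (KO), which encodes a component of a noncanonical form of Polycomb repressive complex 1, and served here as libraries outside the comparison. All mice are labelled C57BL/6, stated as male and 8 to 12 weeks old. Crypts are the pits of the intestinal lining that hold stem cells, Paneth cells and dividing progenitors. RNA was read as full-length Smart-seq2 cDNA from 2 ng of RNA per library.

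AhCre WT crypts came from mice of the AhCre line given beta-naphthoflavone (BNF), and Villin WT crypts from mice of the Villin CreERT2 line given tamoxifen (TAM). The labels do not say whether a WT mouse carries Cre, floxed Pcgf6 alleles or both. The titles give 15 days between compound and collection and the design text gives 7. The description of each Villin library names BNF where its title names TAM. Driver, compound and any batch coincide with the 2 groups, so they cannot be told apart, and no group without a compound is in the series. The labels also do not say that replicates are separate mice, and p-values therefore reflect how far these libraries scatter, which may be technical.

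AhCre places Cre recombinase under the promoter of Cyp1a1, a detoxification gene switched on by the aryl hydrocarbon receptor (AhR) when it binds ligands such as BNF. Villin CreERT2 is made in epithelium by the promoter of Vil1, a brush-border protein gene, and its Cre is fused to a mutated ligand-binding domain of the oestrogen receptor, which tamoxifen releases into the nucleus. The crypt renews the epithelium continuously: Wnt signals keep stem cells at its base, Notch signals set the balance of absorptive and secretory fates, and circadian clock factors and microbial signals change gene activity over the day.

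The genes that check the labels came first. Values are TMM-scaled CPM (read counts relative to a normalised library total), given throughout in the order AhCre WT 1 and 2, then Villin WT 1, 2 and 3. Pcgf6 stood at 14.8, 10.6, 11.2, 13.2 and 9.9 CPM, and at 6.8, 5.57, 2.92 and 2.39 CPM in AhCre KO 1 and 2 and Villin KO 1 and 2. The WT groups overlapped for Pcgf6. As scaled, each KO library lay below all 5 WT libraries. The KO libraries were scaled apart from the WT libraries, here and below, so CPM of the 2 sets are not on 1 scale. Xist, the RNA of the inactive X chromosome, had 24, 12, 2, 1 and 1289 counts. The Y-linked genes Ddx3y, Kdm5d, Uty and Eif2s3y had 0 counts in Villin WT 3 and 17.4 to 66.8 CPM in the other 4 WT libraries. Villin WT 3 therefore went against the stated male sex, and the total counts and most list results below are given with and without it.

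**Figure D1:**
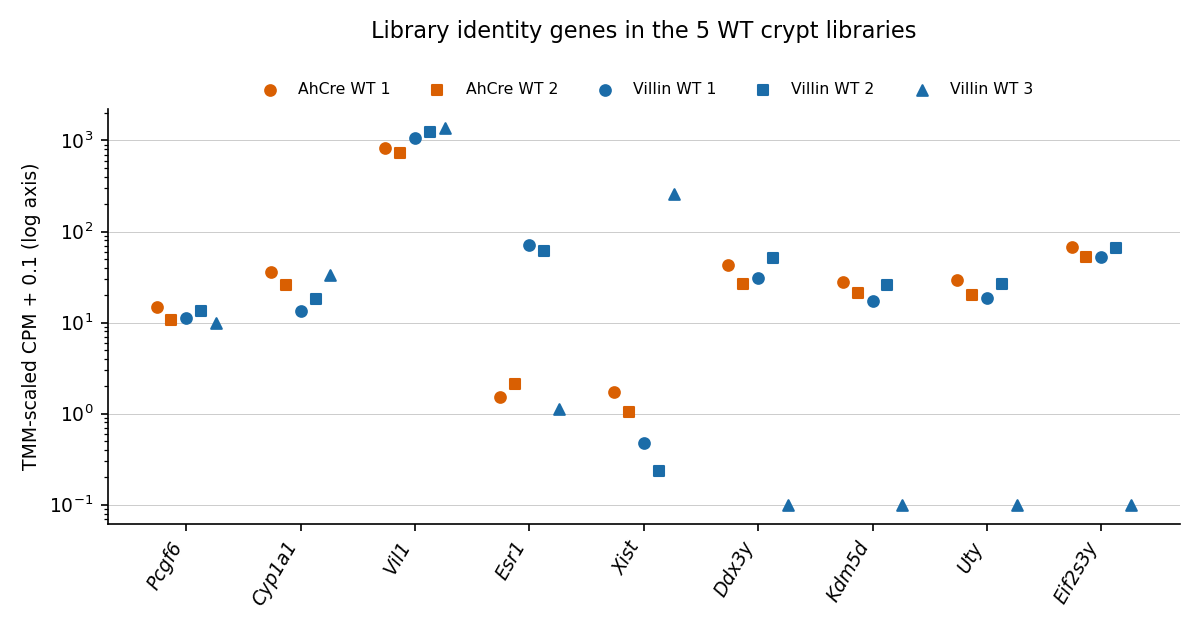
Points are the TMM-scaled CPM plus 0.1 (log axis) of 9 genes in each of the 5 WT libraries. Villin WT 3 is the high point for Xist (260 CPM) and the low point for the 4 Y-linked genes (0 CPM), and it lies with the AhCre libraries for Esr1 (1.01 CPM).

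The driver loci gave a further difference among the Villin libraries. Esr1, the gene of oestrogen receptor alpha (chromosome 10, 4611593 to 5005614, plus strand, GRCm38), had 21, 26, 385, 456 and 5 counts. Villin WT 1 and 2 were high and Villin WT 3 was as low as the AhCre libraries. Esr1 was also high in Villin KO 1 and 2, at 64.4 and 43.8 CPM, against 0.458 and 0.491 CPM in the AhCre KO libraries. In the edgeR quasi-likelihood fit of the 5 WT libraries Esr1 was not called (log2 fold change -4.69, SE 1.73, adjusted p = 0.155), and without Villin WT 3 it was (-5.27, adjusted p = 0.0104). Whether these counts come from the mouse gene or from a transgene was not tested. Cyp1a1 stood at 35.6, 26, 13.4, 17.9 and 33.4 CPM, with overlapping groups (log2 fold change 0.52, SE 0.40, edgeR adjusted p = 0.392). Vil1 stood at 819, 732, 1061, 1232 and 1374 CPM and was not called either (-0.66, adjusted p = 0.269 by edgeR).

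The libraries also differed in depth. Totals were 10645569 to 12377921 counts in AhCre WT and 6455098 to 7013456 in Villin WT, and detected genes 36898 to 38835 against 23427 to 29750. After thinning to equal totals detected genes were still 33250 to 34114 against 23427 to 29254, so the groups did not overlap (exact permutation test, two-sided, p = 0.2, where 0.1 is the smallest p that 2 against 3 libraries allow). The AhCre WT libraries differed more than 2-fold in 1.35% of tested genes and the Villin WT pairs in 23 to 25.3%. Villin WT 2 differed from AhCre WT 1 in 19.4%, fewer than from either Villin partner. All 5 libraries held epithelial markers: Epcam stood at 1216 to 2469 CPM, and 0 of the 10 general epithelial genes were called by edgeR (1 higher and 2 lower where p alone was under 0.05, and 1 higher and 3 lower by DESeq2).

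The 2 groups differed in 1124 of 14705 tested genes in edgeR at a Benjamini-Hochberg adjusted p under 0.05 over all genes together. Of these 674 were higher in AhCre WT (4.58% of all tested) and 450 lower (3.06%). These shares are the background for every list count below, and a list near them does not stand out. Every called gene had 2-fold or larger fitted change and no overlap between the groups. Without regard to the test, 26.9% of genes lay higher in both AhCre libraries than in all Villin libraries and 24.5% lower in both. The count turned on single libraries: leaving out AhCre WT 1 or 2 gave 408 or 134 called genes, and leaving out Villin WT 1, 2 or 3 gave 2, 3550 or 582. Of the 1124 genes, 485 were called in the same direction without Villin WT 3. No called gene changed its sign in any of these 5 fits. Since the groups did not overlap for any called gene, leaving out 1 library could hardly reverse a sign. Of 130 named genes called here, 70 were called without Villin WT 3 and 60 were not. Since 2 genes were called without Villin WT 1, the calls below rest on that library too.

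Among the named genes highest in AhCre WT were matrix and secreted signalling genes. Col1a1 (chain of collagen I; chromosome 11, 94936224 to 94953042, plus strand) stood at 49.7, 61.5, 3.18, 0.933 and 0.404 CPM, 37.2-fold higher in AhCre WT (log2 fold change 5.22, SE 0.56, edgeR adjusted p = 0.00381). Col6a2, a chain of collagen VI, stood at 13.2, 14.2, 0.934, 0.133 and 0.202 CPM (5.04, SE 0.64, adjusted p = 0.00781). Serpinh1, the collagen chaperone, stood at 12.6 and 13.2 against 0.606 to 1.5 CPM (3.39). Loxl1, a collagen cross-linking enzyme, and Hspg2, the basement-membrane proteoglycan perlecan, were also called (3.24 and 3.07), Loxl1 not without Villin WT 3 (edgeR adjusted p = 0.064). Villin WT 1, 2 and 3 held 17, 7 and 2 counts of Col1a1, so its Villin level rests on few reads, and Villin WT 1 was the highest of the 3 for both collagens.

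Sfrp5, a secreted Wnt antagonist (chromosome 19, 42197971 to 42202252, minus strand), stood at 23.2, 25.6, 1.12, 1.47 and 1.01 CPM, 19.8-fold higher in AhCre WT (4.31, SE 0.39, edgeR adjusted p = 0.00163). Lmnb1, which encodes lamin B1 of the nuclear envelope, stood at 197, 259, 21.9, 26.4 and 22.8 CPM (3.27, SE 0.31, adjusted p = 0.00163). Bmp7, a BMP ligand, stood at 18.5 and 27.8 against 1.62 to 4.3 CPM (3.01). Both groups were tight for Sfrp5 and Lmnb1, and the called direction held in 4 of the 5 fits that leave out a library, the exception being the fit without Villin WT 1.

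Other named genes higher in AhCre WT were Slc6a9, a glycine transporter (3.60), Dclk3, a kinase (3.56), Rpusd2, a pseudouridine synthase (3.46), Hist1h2ak, a replication-dependent histone H2A (3.30), and Lipt2, which transfers lipoic acid precursors (3.29). Ddit4, an inhibitor of mTORC1, was at 44.1 and 52 against 2.93 to 10.1 CPM (3.08), and Rrs1, a ribosome assembly factor, at 51.8 and 65 against 5.6 to 9.53 CPM (3.08). Camsap3, a microtubule minus-end protein (3.04), Kank2 (2.91), Rtl10 (3.19) and Fndc1 (3.19) completed the group with Mir6236 (2.94), of which Fndc1 was not called without Villin WT 3 (edgeR adjusted p = 0.063). Without strand information, reads in exons that Slc6a9 shares with B4galt2 and Ccdc24, and Camsap3 with Xab2, cannot be told apart.

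Among the named genes lowest in AhCre WT, Mbl2, a mannose-binding lectin of innate immunity (chromosome 19, 30232942 to 30239687, plus strand), stood at 0.878, 1.01, 54.5, 23.6 and 57.2 CPM. It was 47.1-fold higher in Villin WT (log2 fold change -5.56, SE 0.53, edgeR adjusted p = 0.00163). Ada, adenosine deaminase, stood at 102, 109, 1729, 870 and 1920 CPM (-3.83, SE 0.52, adjusted p = 0.0089). Tmprss15, enteropeptidase, which activates trypsinogen, stood at 3.58, 3.66, 31.6, 21.1 and 89.3 CPM (-3.70). For each of these 3 genes the lowest Villin library was Villin WT 2, at least 5-fold above the AhCre libraries.

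Ugt2b38, a glucuronosyltransferase, was at 0.405 and 0.311 against 6.35 to 27.1 CPM (-5.25). Aldh4a1 of proline breakdown (-3.05), Aspa, aspartoacylase (-3.04), Bst1, an ADP-ribosyl cyclase (-3.17), Dnase1 (-2.89), Leap2, an antimicrobial and ghrelin-receptor peptide (-2.89), and Trib3, a stress pseudokinase (-2.81), were all called lower, Leap2 not without Villin WT 3 (edgeR adjusted p = 0.0529). H2-Aa, H2-Eb1 and H2-DMb1 of MHC class II also belonged to the 20 lowest. The pseudogenes Bambi-ps1, Rps19-ps5, Ftl2-ps, Rpl17-ps3 and Scp2-ps2 were among them with the gene copy Rps27rt, and their values are uncertain because their reads may come from near-identical parent genes. Exons of Aldh4a1 overlap Gm21969, those of Bst1 overlap Fbxl5 and those of Dnase1 overlap Trap1.

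Of the 10 smallest adjusted p-values 6 belonged to predicted gene models made of one repeat, so their sequence is shown before their values. Each line gives the first 60 bases of a GENCODE M21 transcript (GRCm38), with capitals on the 19 bases inside 16-base words that all 3 stretches hold.
Gm10800: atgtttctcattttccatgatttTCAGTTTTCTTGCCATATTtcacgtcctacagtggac
Gm10717: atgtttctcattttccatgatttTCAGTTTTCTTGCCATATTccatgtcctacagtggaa
Gm21738: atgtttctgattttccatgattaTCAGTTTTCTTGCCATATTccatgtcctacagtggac
Gm10800 lies on chromosome 2 (98666547 to 98667301), Gm10717 on chromosome 9 (3025417 to 3033289) and Gm21738 on chromosome 14 (19415857 to 19418930). They resemble the mouse major satellite, the tandem repeat of pericentromeric DNA.

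Altogether 13 gene models shared at least 30% of their 16-base words with Gm10800, 10 of them within chromosome 9 from 3000282 to 3038316. The likeness was sought after the p-values had been seen. Their summed counts were 21568, 11849, 117, 480 and 108, or 1742, 1113, 17.9, 68.4 and 16.7 as CPM of the unscaled library total. Of the 12 models tested, 12 were called higher in AhCre WT and 0 lower, also without Villin WT 3. Models such as Gm10718 (51, 28, 1, 0 and 0 counts) and Gm17535 (38, 22, 0, 0 and 0) passed the count filter only through their AhCre WT reads. The tally over near-copies is therefore a description and no support of its own. Both AhCre libraries stood far above all 3 Villin libraries, of which Villin WT 2 was highest. Gm10717 had 717, 566, 2, 6 and 3 counts (log2 fold change 6.21, SE 0.41, edgeR adjusted p = 0.000313). Gm26870 had 211, 160, 0, 1 and 0 counts, a ratio of 239 scaled by depth with a 95% counting interval of 42.6 to 9460. The KO libraries, which this comparison does not use, had 20525 and 17477 summed counts in AhCre KO and 863 and 63 in Villin KO. Because the models are near-copies, the split of reads among them is uncertain and their sum is the safer value.

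Reads in other genes that crypts are not known to use moved with these repeats. The 1968 olfactory and vomeronasal receptor genes held 7402, 5171, 432, 1830 and 570 counts, or 598, 486, 66.1, 261 and 88.3 CPM of the unscaled total. The AhCre libraries were highest and Villin WT 2 next, as for the satellite-like models (exact permutation test, two-sided, p = 0.1, the smallest possible). The part of genomic DNA, mapping or depth in these counts was not tested.

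Genes of the aryl hydrocarbon receptor pathway gave 1 call. Of 11 tested members, 1 was higher and 0 lower, with a median log2 fold change of 0.20 against -0.07 over all tested genes. With Villin WT 3 left out these values were 1, 0 and 0.45. Il22ra1, the epithelial receptor subunit for IL-22, was the called gene at 43.9, 59, 14.2, 15.8 and 27.7 CPM (1.42, SE 0.35, edgeR adjusted p = 0.0403), and it was not called with the GC and length offset described below (adjusted p = 0.0615). The receptor Ahr stood at 12.4, 11.6, 4.3, 9.59 and 8.09 CPM, its partner Arnt at 51.1, 60.8, 25, 41.3 and 39.4 CPM, and the target Tiparp at 60.9, 52.7, 33.6, 49.3 and 80.8 CPM. None of these 3 was called. Nqo1, a quinone reductase, stood lower in AhCre WT at 47.5, 46, 114, 77 and 102 CPM without passing (adjusted p = 0.0616 by edgeR). The targets Ahrr, Cyp1a2 and Aldh3a1 had at most 20 counts in any of the 5 libraries and were not tested.

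Some detoxification genes beyond that pathway were lower in AhCre WT. Of 31 xenobiotic enzymes and transporters 0 were higher and 5 lower, with 29 negative and a median of -1.04. The called genes were Cyp2c55, Cyp2c65, Cyp2c66 and Cyp3a25, cytochrome P450 enzymes, and Sult1b1, a sulfotransferase. Sult1b1 stood at 295, 224, 1120, 614 and 1559 CPM (-2.08, SE 0.49, edgeR adjusted p = 0.0357), and Cyp2c66 at 43.5, 38.8, 163, 123 and 108 CPM (-1.67, SE 0.33, adjusted p = 0.0219). Leaving out Villin WT 3 gave 2 lower and a median of -0.95, and with the GC and length offset 1 was lower at a median of -0.70. The Cyp2c genes are close paralogs, so the split of reads among them is uncertain.

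Of 34 NRF2 and redox genes 1 was higher and 3 lower, with a median of -0.70. These are 2.94% and 8.82% of the list, against 4.58% and 3.06% over all tested genes. Abcc1, an efflux pump for glutathione conjugates, was higher (20.1, 25.9, 7.66, 9.46 and 7.88 CPM, log2 fold change 1.46, edgeR adjusted p = 0.0295). Srxn1, sulfiredoxin, was lower at 39.2, 40.8, 137, 88.6 and 95.6 CPM (-1.42, SE 0.32, adjusted p = 0.0321), as were Cbr1, a carbonyl reductase (-1.73), and Akr1b8, an aldo-keto reductase (-1.91). In the other 4 libraries, with Villin WT 3 left out, 0 were higher and 1 lower at a median of -0.89. The GC and length offset left 0 higher and 1 lower at a median of -0.42, and Akr1b8 lost its call. Of 8 oestrogen receptor genes tested, Gper1, a membrane oestrogen receptor, was higher (6.62, 6.69, 0.56, 2 and 1.21 CPM, 2.35, adjusted p = 0.0319 by edgeR), and its call was lost without Villin WT 3 (adjusted p = 0.0598).

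Circadian clock genes held 7 called members of 22 tested, 5 higher and 2 lower, with a median of 0.19. In this loop CLOCK, NPAS2 and BMAL1 (Arntl) activate Per, Cry and Nr1d genes, and the products of these genes repress them in turn. Nr1d1 (REV-ERB alpha; chromosome 11, 98767932 to 98775333, minus strand) stood at 6.01, 6.07, 35.5, 44.4 and 27.5 CPM, 5.92-fold higher in Villin WT (log2 fold change -2.57, SE 0.35, edgeR adjusted p = 0.009). Nr1d2 stood at 10.2, 11, 33.4, 37.4 and 25.9 CPM (-1.61, SE 0.32, adjusted p = 0.0232). Both nuclear receptors that repress Arntl were thus low in both AhCre libraries.

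The Period repressors lay on the other side. Per2 (chromosome 1, 91415982 to 91459324, minus strand) stood at 34.6, 44, 7.47, 11.1 and 7.88 CPM, 4.43-fold higher in AhCre WT (2.15, SE 0.32, edgeR adjusted p = 0.0102), and Per1 at 15.3, 19.2, 4.11, 4.13 and 7.07 CPM (1.77, SE 0.38, adjusted p = 0.0284). Bhlhe40, a repressor of E-box genes, stood at 162, 164, 35.7, 55.4 and 45.3 CPM (1.84, SE 0.31, adjusted p = 0.012). The activator Npas2 was higher at 36.6, 44.6, 12.1, 13.5 and 17.6 CPM (1.50, adjusted p = 0.0235). No AhCre value of these 6 genes fell within the Villin range, which held for every called gene. Arntl itself stood at 82.6, 86.6, 20.2, 51.4 and 47.3 CPM and Cry1 at 39.1, 41.5, 10.8, 7.59 and 24.1 CPM without passing (adjusted p = 0.0965 and 0.0588 by edgeR). Clock, Per3, Dbp, Hlf, Usp2 and Csnk1d were not called, with log2 fold changes from -0.68 to 0.77. Exons of Nr1d1 overlap Thra on the other strand, so its reads are not all assignable.

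**Figure D2:**
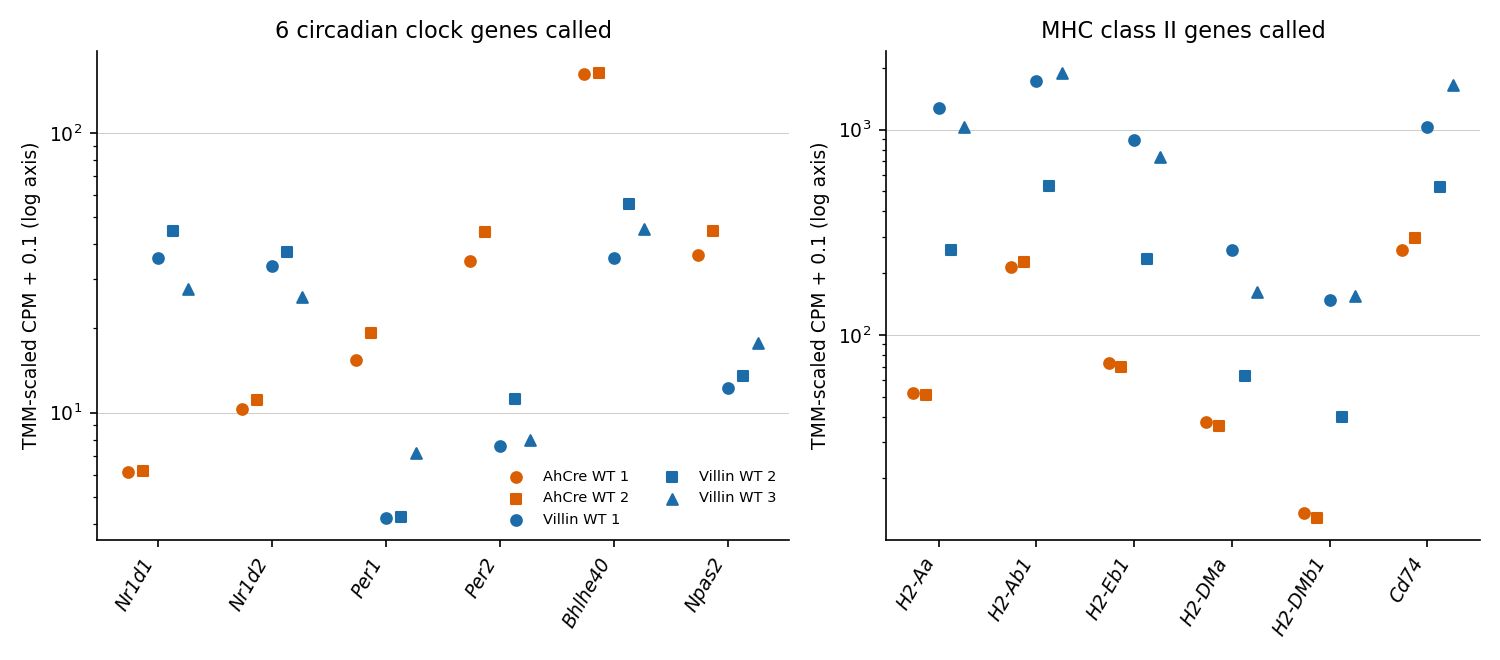
Points are TMM-scaled CPM plus 0.1 (log axis) in the 5 WT libraries for 6 of the called clock genes and the 6 called MHC class II genes. Nr1d1 (6.01 and 6.07 CPM in AhCre WT) and Per2 (34.6 and 44 CPM) differ in opposite directions, and Villin WT 2 is the lowest Villin library for each MHC class II gene.

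Without Villin WT 3, 7 clock genes were higher and 3 lower and the median was -0.03; with the GC and length offset, 3 were higher and 2 lower, and Per1 and Npas2 lost their calls (edgeR adjusted p = 0.133 and 0.0506). Without AhCre WT 1, 2 were higher and 1 lower, and without AhCre WT 2, 1 and 1. Collection times of day are not in the labels. RefSeq promoters (GRCm38.p6, 250 bases before to 50 after a start) were held for 4 of the 7 called clock genes, 5 promoters in all, and 1 contained CACGTG, the E-box bound by CLOCK complexes, on either strand (a palindrome). Over 32851 promoters of 300 bases, 7.15% contained it. The promoter with the match is that of Per1, shown with the motif in capitals, beside that of Nr1d1 without one, since the 2 genes differed in opposite directions.
Per1, chr11:69098699-69098998, plus strand: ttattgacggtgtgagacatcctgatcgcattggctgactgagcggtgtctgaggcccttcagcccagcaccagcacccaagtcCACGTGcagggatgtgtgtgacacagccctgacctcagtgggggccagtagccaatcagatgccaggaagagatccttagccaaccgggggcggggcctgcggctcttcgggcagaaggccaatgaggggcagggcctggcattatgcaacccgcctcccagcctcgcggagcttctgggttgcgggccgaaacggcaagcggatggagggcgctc
Nr1d1, chr11:98775328-98775627, minus strand: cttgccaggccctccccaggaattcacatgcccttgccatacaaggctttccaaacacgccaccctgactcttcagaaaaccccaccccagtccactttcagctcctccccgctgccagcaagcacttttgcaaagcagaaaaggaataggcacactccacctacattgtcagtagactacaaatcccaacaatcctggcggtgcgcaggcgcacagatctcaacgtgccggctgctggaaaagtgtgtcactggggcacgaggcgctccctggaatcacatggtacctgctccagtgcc
A match of letters is a description and not a binding site. Of the 3 called NRF2 and redox genes with a RefSeq promoter, 1 contained TGACNNNGC, the antioxidant element, on either strand, against 12.4% of all promoters, and Il22ra1 did not contain GCGTG, the AhR core motif, which 32.4% of promoters hold.

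Some genes of the crypt base were higher in AhCre WT. Of 28 tested stem cell genes and Wnt targets, 5 were higher and 0 lower, 26 were positive, and the median was 0.47 against -0.07 over all genes. Lgr5, the R-spondin receptor that marks crypt base columnar stem cells, stood at 36, 31.9, 16.1, 14.7 and 10.9 CPM (1.29, SE 0.31, edgeR adjusted p = 0.0363). The Wnt target Axin2 stood at 65.4, 82.7, 18.9, 29.6 and 21.6 CPM (1.66, SE 0.31, adjusted p = 0.0185), and Sox9, a transcription factor of stem and Paneth cells, at 110, 143, 35.7, 34.6 and 22.2 CPM (2.03, SE 0.32, adjusted p = 0.0111). Clca3b (1.83) and Soat1 (1.49) were called as well. Olfm4, an abundant stem cell glycoprotein, stood at 1936, 1373, 708, 2059 and 2177 CPM and overlapped (0.01), as did Ascl2 (32.4, 33.1, 42.6, 30.9 and 15.4 CPM). Of these 5 genes Sox9 and Axin2 were called without Villin WT 3, at a list median of 0.40; with the GC and length offset 4 were higher.

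Notch pathway genes held 3 higher and 0 lower of 18, with a median of 0.67. The receptors Notch1 (40.6, 61.7, 7.66, 13.1 and 6.27 CPM, log2 fold change 2.49, SE 0.38, edgeR adjusted p = 0.0104) and Notch2 (37.5, 48.8, 5.79, 10.5 and 9.7 CPM, 2.31, SE 0.34, adjusted p = 0.0102) were higher. Lfng, the Fringe glycosyltransferase that tunes Notch for its ligands, was at 17.2, 19.7, 0.56, 3.2 and 4.85 CPM (2.68, adjusted p = 0.0288). The count was 3 at a median of 0.61 without Villin WT 3, and 2 at a median of 0.33 with the GC and length offset. The ligands Dll1 (0.71) and Dll4 (0.87), the target Hes1 (0.49) and the secretory factor Atoh1 (0.85) did not pass.

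Proliferation genes mostly did not pass. Of 30 DNA replication genes 1 was higher (Pold1, a DNA polymerase delta subunit, 62.3, 82.8, 19.6, 36 and 26.5 CPM, 1.40, edgeR adjusted p = 0.035) and 0 lower, at a median of 0.40. The 1 call is 3.33% of the list, against 4.58% called higher over all tested genes. The GC and length offset left 0 of these 30 called, at a median of 0.49. Of 29 mitosis genes 0 were called by edgeR (7 higher and 1 lower where p alone was under 0.05, and 3 higher and 1 lower by DESeq2), at a median of 0.30, with Mki67 at 124, 104, 102, 123 and 51.5 CPM. Of 38 histone genes tested 4 were higher and 0 lower, at a median of 0.68 (5 higher at 0.74 without Villin WT 3). Besides Hist1h2ak they were Hist1h2ab (1.76), Hist1h2bb (1.86) and Hist2h3c2 (2.57). Histone copies share sequence, and replication-dependent histone mRNAs lack a poly(A) tail, so poly(A)-primed counts of them are partial.

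Some genes of absorptive enterocytes were lower in AhCre WT. Of 38 tested, 0 were higher and 5 lower, 32 were negative, and the median was -0.85. Besides Ada and Tmprss15, the called genes were the lipoprotein genes Apoa4 (1044, 794, 6664, 3239 and 5312 CPM, log2 fold change -2.46, SE 0.51, edgeR adjusted p = 0.0247) and Apoc3 (347, 371, 1669, 801 and 1682 CPM, -1.95), and the fatty acid carrier Fabp2 (1521, 1173, 7062, 3437 and 8233 CPM, -2.21, adjusted p = 0.038). Brush-border hydrolases lay close together: Alpi stood at 678, 798, 669, 699 and 844 CPM, Lct, lactase, at 580, 584, 486, 527 and 510 CPM, and Sis, sucrase-isomaltase, at 1359, 1111, 1788, 1476 and 2233 CPM. None of these 3 hydrolases was called. Without Villin WT 3, 2 were lower at a median of -0.64, and with the offset 6 were lower.

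Markers of intestinal region did not point to 1 region. Of 16 proximal genes 0 were higher and 1 lower (Adh6a, an alcohol dehydrogenase, 515, 403, 2022, 955 and 1603 CPM, -1.73, edgeR adjusted p = 0.0489), and of 13 distal genes 0 were higher and 2 lower. The distal genes were Nr1h4, the bile acid receptor FXR (33.4, 29.9, 76.6, 60.8 and 111 CPM, -1.39, adjusted p = 0.04), and Slc51b, a bile acid exporter subunit (85.8, 80.7, 557, 138 and 755 CPM, -2.54, adjusted p = 0.0425). The ileal carrier Fabp6 stood at 1022, 995, 3081, 512 and 2483 CPM, with Villin WT 2 below and Villin WT 1 and 3 above AhCre WT. Neither list held a called gene without Villin WT 3 (0 by edgeR). How much of the small intestine each library covered is not in the labels.

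The goblet and Paneth cell lists held 11.5% and 18.8% of their tested genes called higher, against 4.58% over all tested genes. Of 26 goblet cell genes 3 were higher and 0 lower, at a median of 0.28 (2 higher at 0.42 without Villin WT 3): Atp2a3, a calcium pump (227, 295, 49.9, 52.9 and 77.6 CPM, 2.12, edgeR adjusted p = 0.0112), Pdia5 (1.58) and the transporter Slc12a8. The mucin Muc2 stood at 887, 1106, 675, 356 and 316 CPM and the trefoil peptide Tff3 at 913, 947, 2346, 682 and 3165 CPM, neither called, with fold changes of opposite sign (1.15 and -1.15). Of 16 Paneth cell genes other than defensins 3 were higher and 0 lower, at a median of 0.35: Sox9, the lipase Pnliprp2 (1.69) and angiotensinogen Agt (1.97). The count was again 3 without Villin WT 3, at a median of 1.40, but Pnliprp2 was not among them (edgeR adjusted p = 0.0546).

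Alpha-defensins, the Paneth cell antimicrobial peptides, gave 0 calls among 17 tested by edgeR, 0 where p alone was under 0.05, and 0 by DESeq2. Their median was -0.92 and all 17 were negative. The summed level of the 24 defensin genes counted, tested or not, was 5152, 4600, 8603, 2105 and 15960 CPM. The Villin range thus enclosed both AhCre libraries. The median was -0.15 without Villin WT 3 and 0.26 with the GC and length offset. Without Villin WT 2, 7 of the 17 tested were called lower by edgeR. Lysozyme Lyz1 likewise had its highest level in Villin WT 3 and its lowest in Villin WT 2, at 3012, 2663, 2678, 655 and 5240 CPM. Defensin copies are near-identical, so single members are uncertain. Villin WT 2 was thus low and Villin WT 3 high for Paneth cell products. In these bulk libraries, fewer cells of a type and less RNA per cell cannot be told apart.

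Of 29 tuft cell genes 2 were higher and 0 lower, at a median of 0.10: Trpm5, the cation channel of taste-like signalling (41.8, 49.4, 8.22, 12.5 and 13.7 CPM, 1.99, SE 0.32, edgeR adjusted p = 0.0117), and Dclk1 (34, 39.5, 19.4, 16.2 and 13.3 CPM, 1.17, adjusted p = 0.0452). Of 30 enteroendocrine genes 2 were higher and 0 lower, at a median of 0.37: Pcsk1n, an inhibitor of prohormone processing (2.58), and Vwa5b2 (1.69). Chga, chromogranin A, overlapped at 105, 113, 104, 35.7 and 99.8 CPM. The genes called higher were 6.9% of the tuft list and 6.67% of the enteroendocrine list, near the 4.58% over all tested genes. Leaving out Villin WT 3 gave 3 higher tuft genes at a median of 0.49 and 1 higher enteroendocrine gene at 0.68, and the calls of Dclk1 and Vwa5b2 were lost (adjusted p = 0.0667 for each by edgeR). With the GC and length offset 1 gene of each list was higher, at medians of 0.34 and 0.80.

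MHC class II genes had the lowest median of the lists, and 6 of 10 were lower in AhCre WT with 0 higher (median -2.04). H2-Aa, the alpha chain of I-A (chromosome 17, 34282744 to 34287823, minus strand), stood at 51.8, 50.6, 1279, 258 and 1034 CPM, 16.7-fold higher in Villin WT (log2 fold change -4.07, SE 0.69, edgeR adjusted p = 0.0126). H2-Ab1 stood at 213, 226, 1720, 533 and 1889 CPM (-2.65), H2-Eb1 at 73, 69.4, 889, 235 and 738 CPM (-3.12), and the invariant chain Cd74 at 260, 298, 1028, 528 and 1655 CPM (-1.94, adjusted p = 0.0497). The peptide-loading genes H2-DMa (-2.13) and H2-DMb1 (-3.12) were called too. Ciita, the master activator of the class, stood at 10.9, 12.4, 31.2, 18 and 43.9 CPM and narrowly missed the threshold (adjusted p = 0.0582). H2-Oa, H2-Ob and H2-DMb2, which B cells express, were not called. Without Villin WT 3, 1 gene (H2-Aa) was called and the median was -1.81, and with the offset 5 were lower.

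Interferon-stimulated genes were negative in 38 of 39, with 0 higher, 5 lower and a median of -1.07. Ifit1, an antiviral RNA-binding protein, stood at 13.2, 9.96, 41.5, 42.9 and 90.8 CPM (log2 fold change -2.33, SE 0.43, edgeR adjusted p = 0.0175). Rtp4 (-1.95), the GTPase Igtp (-2.10), Xaf1 (-2.06) and Oas1g (-1.50) were also lower. Isg15 stood at 10.5, 10.8, 39.6, 20.6 and 121 CPM without passing (adjusted p = 0.0607). Without Villin WT 3, 1 was lower at a median of -0.72, and with the offset 3 were. Among 19 antimicrobial and microbe-responsive genes 1 was higher (S100a9, at most 3.58 CPM) and 0 lower, and 0 were called without Villin WT 3 by edgeR against 2 higher and 8 lower by DESeq2 in the 5 libraries. The lectins Reg3b (781, 720, 3483, 1091 and 8584 CPM) and Reg3g (875, 846, 3345, 1118 and 6904 CPM) stood lower in AhCre WT without passing (adjusted p = 0.0667 and 0.0797 by edgeR).

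Immune cell markers moved with Villin WT 3. The summed level of the 27 listed lymphocyte and plasma cell genes was 520 and 524 CPM in AhCre WT and 1007, 175 and 3885 CPM in Villin WT. Of the 25 tested, 0 were higher and 1 lower (Trac, the T cell receptor alpha constant gene, 1.76, 1.32, 7.66, 4.4 and 17.8 CPM, -2.67, edgeR adjusted p = 0.0374). That call is 4% of the list, near the 3.06% called lower over all tested genes. The list median was -1.33, and 0.24 without Villin WT 3. Gzma, a granzyme of intraepithelial lymphocytes, stood at 172, 176, 203, 36.1 and 1686 CPM. Villin WT 2 had the lowest sum and Villin WT 3 the highest. Of 14 myeloid and mast cell genes tested 0 were called by edgeR, and 1 was higher without Villin WT 3. Where p alone was under 0.05 in edgeR, 0 were higher and 1 lower, and by DESeq2 0 were called. Sums over the 20 listed genes were 199 and 213 against 163, 49.6 and 278 CPM. The part of immune cells in the MHC class II and interferon values was not tested.

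Stromal genes had the highest median, 1.51, with 3 of 17 higher and 0 lower. Besides Col1a1 and Col6a2 the called gene was Col3a1, at 38.6, 35.5, 11.8, 2.93 and 2.02 CPM (2.74, SE 0.59, edgeR adjusted p = 0.0267). Fn1, fibronectin, stood at 88.2, 116, 16.6, 2 and 1.82 CPM without passing (adjusted p = 0.056). Other stromal genes did not follow: Dcn, decorin, stood at 27, 25.1, 139, 14.4 and 7.07 CPM and Sparc at 23, 26.2, 41.1, 2.13 and 1.21 CPM, with Villin WT 1 the highest of the 5. The summed level of the 27 listed genes was 331 and 364 against 297, 44.9 and 47.9 CPM, so Villin WT 1 was near AhCre WT and Villin WT 2 and 3 were low. Smooth muscle Acta2, Actg2 and Cnn1 had at most 19 counts in any of the 5 libraries and were not tested. With Villin WT 3 left out, 2 were higher at a median of 1.13. The part of fibroblasts in the collagen values was not tested.

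Genes of cell stress and immediate response split. Of 15 immediate early genes 1 was higher and 3 lower, at a median of -0.82 (0 higher and 2 lower at -0.68 without Villin WT 3). Klf4, a factor of differentiated and goblet cells, stood at 26.1, 26.2, 164, 96.6 and 110 CPM (-2.24, SE 0.35, edgeR adjusted p = 0.0112), Klf6 at 105, 103, 301, 260 and 278 CPM (-1.43), and Jund at 7.77, 9.41, 54.7, 31.7 and 17 CPM. Ier2 was higher at 43.6, 48.6, 21.3, 16.9 and 13.7 CPM (1.41). Fos stood at 51.1, 57.7, 110, 92.7 and 105 CPM, outside the Villin range but not called (adjusted p = 0.0762). Of 12 heat shock genes 1 was higher, Hsph1 (61.7, 60.8, 18.5, 25.7 and 21.8 CPM, 1.47), with a median of -0.05.

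Of 22 genes of endoplasmic reticulum stress and amino acid response 2 were higher and 2 lower, and 1 and 1 without Villin WT 3. The GC and length offset left 0 higher and 1 lower. Hyou1, a chaperone, stood at 94.7, 111, 12.3, 16.4 and 42.9 CPM (2.11, edgeR adjusted p = 0.0295) and Ern1, the sensor IRE1 alpha, at 45.5, 52.1, 9.53, 19.3 and 16.8 CPM (1.68), while Ddit3 (CHOP) stood at 13.7, 13.5, 52.9, 28.6 and 41.4 CPM (-1.59) and its partner Trib3 at 1.76, 3.66, 25, 18.1 and 13.9 CPM. Of 11 glucocorticoid response genes 2 were higher (2 higher and 1 lower without Villin WT 3), Ddit4 and Hsd11b2, the enzyme that inactivates corticosterone (64.9, 91.8, 12.5, 12 and 16.8 CPM, 2.51, SE 0.31, adjusted p = 0.00781). Of 15 p53 response genes 1 was higher, Zmat3 (23.1, 23.5, 3.55, 6.66 and 4.85 CPM, 2.20). That is 6.67% of the p53 list, near the 4.58% called higher over all tested genes.

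Lipid synthesis genes held 5 higher and 0 lower of 28, at a median of 0.38. Fasn, fatty acid synthase, stood at 132, 170, 37.4, 56.4 and 35.4 CPM (1.81, SE 0.32, edgeR adjusted p = 0.0154). Acly (1.27) and the regulator Srebf2 were also higher. Hmgcs1, an enzyme of the mevalonate pathway, was not called (0.10). Without Villin WT 3 there were 3 higher at a median of 0.65, and with the offset 3 at 0.32. Of 24 genes of fatty acid oxidation 1 was higher (Ppard, 1.21), and of 16 genes of hypoxia and glycolysis 2 were lower (Vegfa, -1.47, and Adm, -2.02). In both lists 0 were called by edgeR without Villin WT 3. The fatty acid oxidation call is 4.17% of its list, near the 4.58% called higher over all tested genes.

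Polycomb subunits, the family of the gene deleted elsewhere in the series, gave 1 higher and 1 lower of 35, at a median of 0.01 whose sign changed under other scalings. Each call is 2.86% of the list, no more than the 4.58% higher and 3.06% lower over all tested genes. Cbx2, a PRC1 chromodomain subunit, stood at 24.1, 24.8, 4.86, 6.66 and 6.47 CPM (2.02, SE 0.33, edgeR adjusted p = 0.0117), and Suz12, a core PRC2 subunit, at 21.7, 14.8, 47.8, 52.1 and 34 CPM (-1.29, adjusted p = 0.046). Of 10 genes known to vary between inbred strains 1 was lower, Trim12a (20.2, 15.8, 61.6, 33.8 and 77.2 CPM, -1.67, adjusted p = 0.035). Nnt, which is partly deleted in the C57BL/6J substrain, stood at 106, 119, 17, 56.4 and 47.1 CPM without passing (adjusted p = 0.062 by edgeR). Of 11 type 2 cytokine response genes 2 were lower, Il33 (-1.60) and Sprr2a3 (-2.05), and of 15 fetal-like and injury genes 2 were, Areg (-2.18) and Il33. None of these type 2, injury and strain genes was called lower without Villin WT 3, where 1 type 2 gene was higher.

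**Figure D3:**
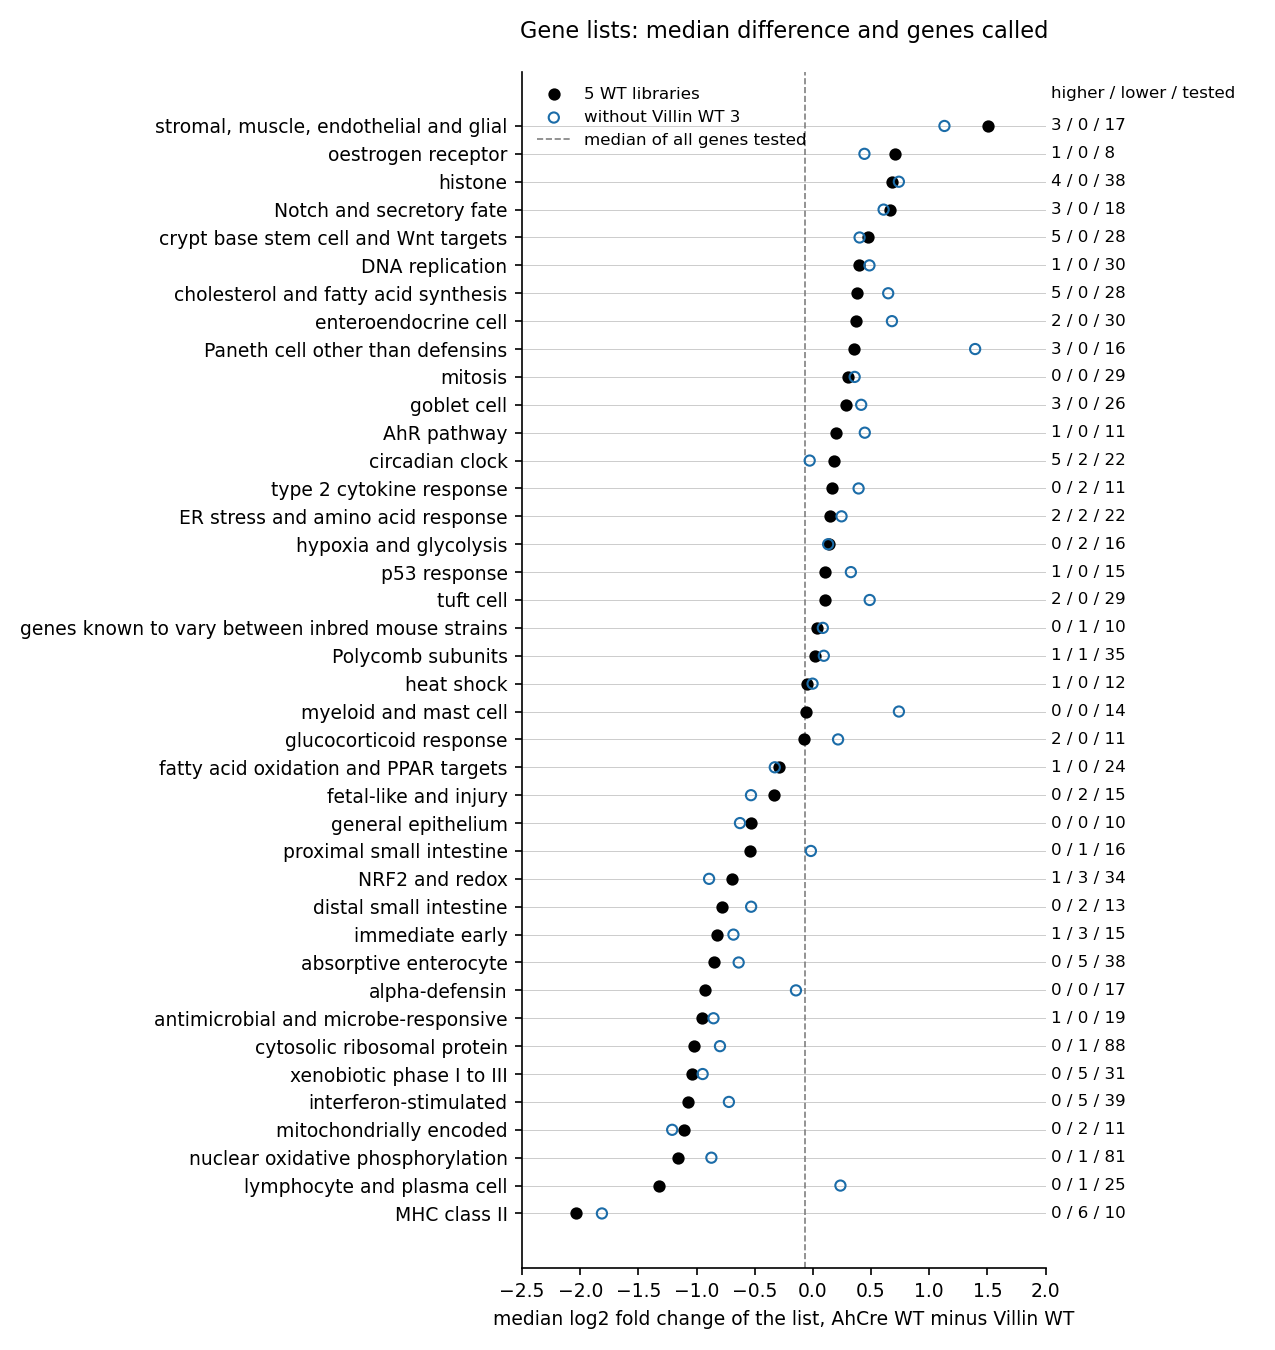
Each row is a gene list with at least 8 tested members, its median log2 fold change in the 5 WT libraries (filled) and without Villin WT 3 (open), with the numbers called higher, called lower and tested at the right. The dashed line is the median of all tested genes (-0.07). MHC class II (-2.04) and stromal genes (1.51) are at the ends, and the lymphocyte list moves from -1.33 to 0.24.

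Transcripts of ribosomes and mitochondria stood lower in AhCre WT, and how many passed depended on the tool and on Villin WT 2. Of 88 cytosolic ribosomal protein genes 87 were negative, with 0 higher, 1 lower (Rpl32l) and a median of -1.02, and of 81 nuclear oxidative phosphorylation genes 79 were negative, with 0 higher, 1 lower (Atp5l) and a median of -1.16. By DESeq2 27 and 31 were lower, without Villin WT 2 77 and 65 were lower in edgeR, and without Villin WT 3 0 and 0 were, at medians of -0.80 and -0.87. The summed level of the 92 listed ribosomal protein genes was 19760 and 20460 CPM in AhCre WT and 46590, 23930 and 51330 CPM in Villin WT, where Villin WT 2 was close to AhCre WT. Of 11 mitochondrially encoded genes 0 were higher and 2 lower, mt-Nd3 (4.19, 3.97, 34, 11.3 and 37.2 CPM, -2.74, edgeR adjusted p = 0.0198) and mt-Cytb (1151, 1090, 6462, 3119 and 3412 CPM, -1.95), with 0 lower without Villin WT 3 and 7 lower by DESeq2. The mitochondrial share of counts was 2.81% and 2.07% against 4.74%, 4.04% and 4.92% (exact permutation test, two-sided, p = 0.1, the smallest possible).

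These values moved with transcript length and GC content. Genes called higher had a median exon length of 5645 bases and GC content of 54.5%, genes called lower 2315 bases and 46.4%, and all tested genes 4029 bases and 49.3%. The median log2 fold change rose from -0.96 in the shortest 10% of genes to 0.28 in the longest, and from -0.43 to 0.28 from the lowest to the highest GC. A per-library offset for both, added after this was seen, left 639 genes called (348 higher, 291 lower), of which 484 were among the 1124. With it the medians were -0.60 for ribosomal proteins, -0.58 for oxidative phosphorylation and 0.30 for mitochondrial genes, which had been -1.11. No called gene changed sign, which was unlikely from the start because the called groups did not overlap. Exons of Axin2, Notch1, Notch2, Apoa4, Slc51b, Trpm5, Bhlhe40, H2-DMa, Cd74, Ddit3 and Rtl10 also overlap those of other genes, so part of their reads may belong to those. Whether length and GC follow library preparation or cell state was not tested.

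**Figure D4:**
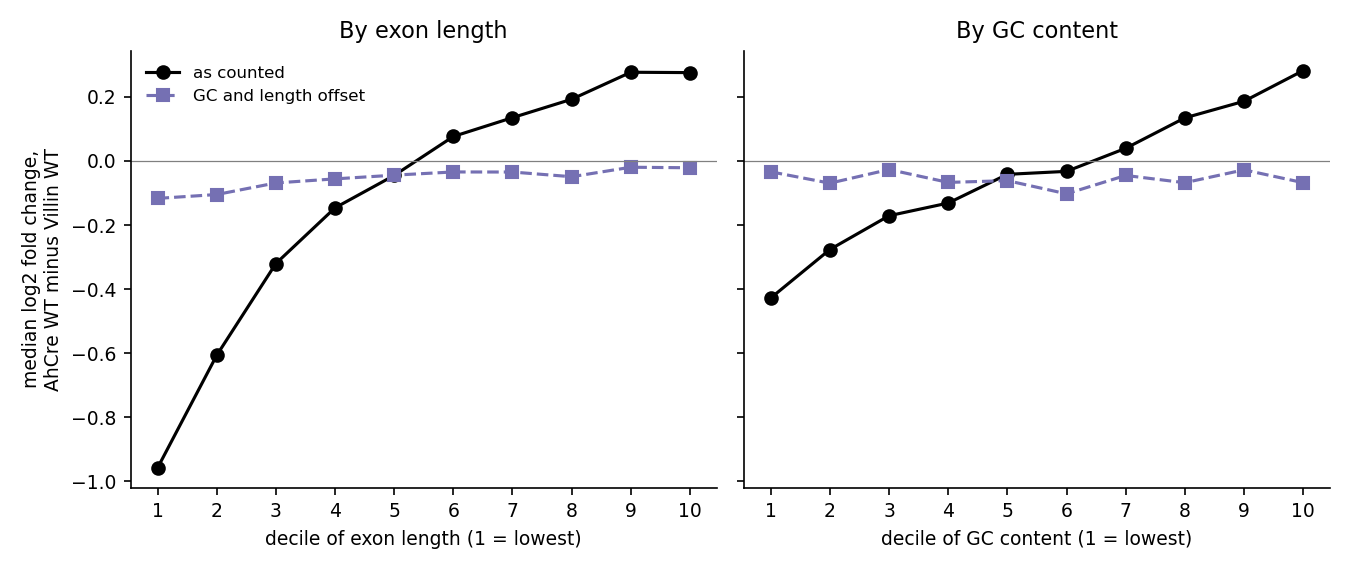
Points are the median log2 fold change, AhCre WT minus Villin WT, of tested genes in deciles of exon length (left) and GC content (right), as counted and with the offset. As counted the median runs from -0.96 to 0.28 over length, and with the offset it stays between -0.12 and -0.02.

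The KO libraries repeat the contrast of driver, compound and any batch in 4 other libraries. Detected genes were 34103 and 33791 in AhCre KO against 22972 and 22058 in Villin KO. The median KO log2 fold change ran from -0.11 in the shortest 10% of genes to 0.53 in the longest. The part of these library properties in the shared signs below was not tested. Between AhCre KO and Villin KO, 2989 of 14536 genes were called by edgeR (20.6%), 1242 higher and 1747 lower. Of the 1124 genes called between the WT groups, 1013 were tested there, and 956 (94.4%) had the same sign, against 71.6% of the 13849 genes tested in both. The calls shared in direction were 565, which is 50.3% of the WT calls and 18.9% of the KO calls. The KO count also turned on single libraries: leaving out AhCre KO 1 or 2 gave 28 or 95 called genes, and leaving out Villin KO 1 or 2 gave 7687 or 7898. Villin KO 2 had 306 Xist counts and at most 3 counts of each Y-linked gene, so it too went against the stated sex.

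Named genes fell into groups by their KO values. Sfrp5 (4.38), Lmnb1 (4.32), Ada (-4.72), Mbl2 (-4.37) and Nr1d1 (-3.58) had KO log2 fold changes of the same sign that were called by edgeR. Of the lists, enterocyte genes had 33 of 38 lower and stem cell genes 13 of 28 higher between the KO groups. MHC class II had 0 of 10 called there, with H2-Aa at 100.3 and 118 CPM in AhCre KO and 15.2 and 238 CPM in Villin KO. Per2 stood at 26, 26.3, 32.1 and 21.3 CPM in the KO libraries in the same order (-0.03), and Per1 at 14.7, 10.4, 34.2 and 21.2 CPM (-1.14, adjusted p = 0.0935 by edgeR), while Arntl was called (3.38). Col1a1 stood at 13.1, 12.1, 13.4 and 15.5 CPM (-0.20) and Col6a2 at 7.79, 5.82, 5.45 and 1.34 CPM (1.03, adjusted p = 0.314 by edgeR), and neither was called.

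**Figure D5:**
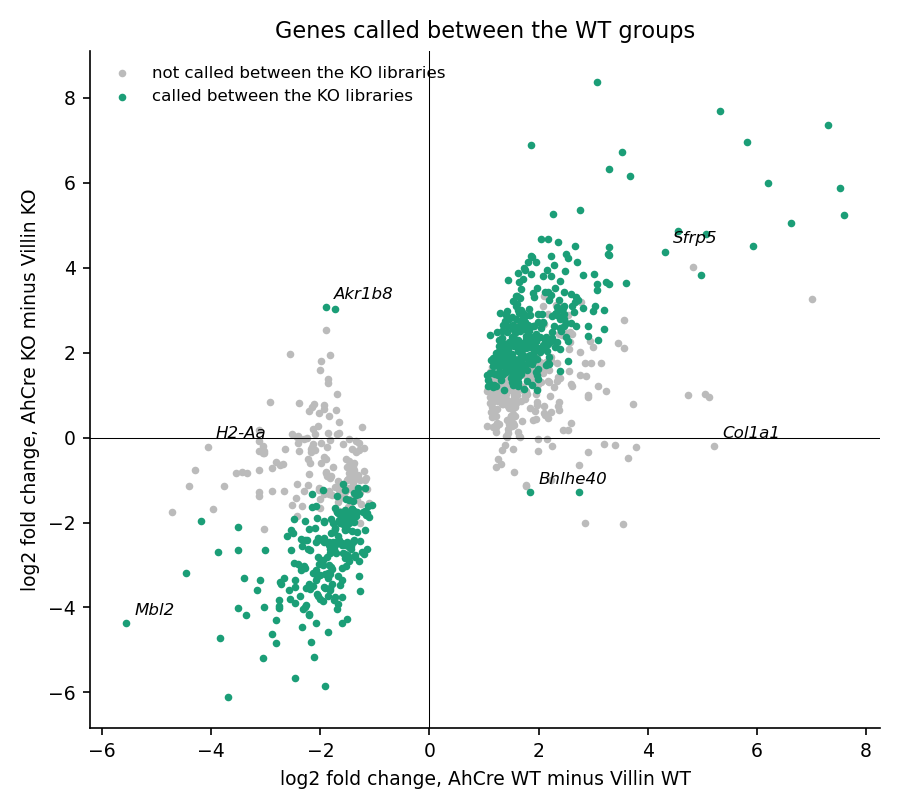
Each point is 1 of the 1013 genes called between the WT groups and tested between the KO groups, with its log2 fold change in WT (horizontal) and in KO (vertical). Of these, 956 have the same sign on both axes, and Col1a1, Bhlhe40 and Akr1b8 do not.

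The difference between the WT and KO contrasts, which share no library, was tested as an interaction over all 9 libraries. Of 16250 genes 12 passed (edgeR adjusted p under 0.05), 5 of them among the genes called between the WT groups: Col1a1, Akr1b8, Bhlhe40, Bbox1 and Slc2a7. Col1a1 was 5.22 in WT and -0.20 in KO, Bhlhe40 1.84 and -1.29, and Akr1b8 -1.91 and 3.06. Bbox1, of carnitine synthesis, and the sugar transporter Slc2a7 were lower in AhCre in both, by more in KO (-2.47 and -5.67, and -1.87 and -4.58). The others were Slc2a2, Slc2a5, Slc37a4, Slc46a1, Npl, Dnah2 and Hlf, which were called between the KO groups and not between the WT groups.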

How the data were processed

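Small-intestinal crypts were profiled in 9 Smart-seq2 libraries. The authors deposited raw counts of reads per gene, 1 file per library. STAR 2.7, featureCounts and DESeq2 1.20 with mm10 or GRCm38 are named per the submitters' processing notes, without roles; the sources used here do not give the annotation, strand setting or read filters. Full-length cDNA without molecular identifiers was counted, so long transcripts yield more reads and amplified copies are counted as reads. Gene positions come from the GENCODE M21 annotation of GRCm38.

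From the counts, edgeR 4.0.16 (R 4.3.3) was fitted to the 5 WT libraries alone: filterByExpr, TMM factors, robust quasi-likelihood test, and adjusted p (Benjamini-Hochberg) under 0.05 over 14705 of 55341 genes. The KO libraries were fitted likewise, and an interaction over all 9. DESeq2 1.42.0 and limma 3.58.1 served as alternatives, with other scalings and filters, thinning, a replicate block, each library left out, and, added after seeing the data, an offset for GC and exon length. The scripts were tested on simulated data. Totals ran from 6455098 to 12377921 counts, and intervals cover counting error only. Exact permutation tests of 2 against 3 libraries cannot go below p = 0.1.

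Named genes were the 20 largest called, non-overlapping changes per direction (mean of at least 5 CPM in the higher group, leaving out Gm, Rik and clone names), the 10 smallest adjusted p, and up to 6 called members per list, with other members as values beside their list's counts. The satellite-like models were grouped after their values had been seen. The members and lists were chosen with earlier results of these data known. Some genes counted in the lists are not reported here by name.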

Additional observations from a re-analysis of the deposited data

Results flagged for a closer look

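The difference between AhCre and Villin differed between WT and KO for the 12 genes named above, by the interaction test over all 9 libraries (edgeR, Benjamini-Hochberg adjusted). For 3 of them that were called between the WT groups, the 2 fitted values also had opposite signs. Of these, Col1a1 was not called between the KO groups (SE 0.35, edgeR adjusted p = 0.696), so its sign there is not settled. For Col1a1 the AhCre minus Villin log2 fold change was 5.22 in WT and -0.20 in KO, a difference of 5.38 (SE 0.74, adjusted p = 0.0253). For Akr1b8 it was -1.91 in WT and 3.06 in KO, a difference of -4.99 (SE 0.71, adjusted p = 0.0253), with 31.1 and 38.8 CPM in AhCre KO against 3.69 and 4.62 in Villin KO. For Bhlhe40 it was 1.84 in WT and -1.29 in KO, a difference of 3.11 (SE 0.48, adjusted p = 0.0343). Akr1b8 and Bhlhe40 were called in both genotypes, in opposite directions. The WT call of Akr1b8 was close to the threshold (edgeR adjusted p = 0.0497). It was lost with the GC and length offset (edgeR adjusted p = 0.105).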

How the results depend on the processing

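The count of called genes depended on the method. Every one of the 1124 genes kept its sign under each alternative that tested it. Their groups did not overlap in CPM and their fitted changes were at least 2-fold, so a change of sign was hardly possible. Against 1124 called (674 higher, 450 lower), no filter on low counts gave 2022 (1099 and 923), DESeq2 2296 (1092 and 1204), limma-voom with sample weights 4061 (1859 and 2202), and the offset for GC and length 639 (348 and 291). The share of calls that were higher was 60% and fell to 47.6% under DESeq2 and 45.8% under limma-voom. Leaving out 1 library gave 2 to 3550 genes (2 to 1654 higher, 0 to 1896 lower), and between the KO groups 28 to 7898. The replicate block gave 2091 genes (1183 higher, 908 lower), but replicate numbers only name libraries: same-numbered deviations correlated at -0.05 and 0.04. Under the replicate block Xist, whose reads are nearly all from Villin WT 3, reversed to 2.32. Of the list medians near 0, those of the Polycomb subunits and of the genes varying between strains changed sign under other scalings. With 2 and 3 libraries per group, single libraries limit every count, and depth was lower in all Villin WT libraries.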
